A study of Mus musculus with 9 samples.

Results

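The serpins are a family of proteins that share a fold with an exposed reactive loop, and most of them block serine or cysteine proteases. In mouse the family is written Serpin plus a clade letter and a number. Members were taken as every gene symbol of that form in the deposited gene table except Serping1, the only member of its clade, which the rule leaves out. The rule used names and no measured value, and it gave 67 genes of the 53713 in the table. Clade a holds 29 of them, clade b 28, clade e 3, clades f and i 2 each, and clades c, d and h 1 each.

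An inhibitory serpin acts as bait: the protease cuts its loop, the serpin springs into a new shape and the protease stays trapped in a dead complex. Clades a, c, d and f are mostly proteins that liver cells secrete into blood, where they restrain leukocyte elastase, clotting proteases and plasmin or, having lost inhibition, carry hormones. Clade b proteins stay mostly inside cells, where they protect the cell from granule and lysosomal proteases. Clade e acts outside cells, on thrombin among others, and clade h is a collagen chaperone of the endoplasmic reticulum that inhibits no protease.

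Single cells were taken from livers of C57BL/6J mice aged 6 to 8 weeks, and tagged transcript ends were counted as unique molecular identifiers (UMIs). Wild-type mice had received carbon tetrachloride (CCl4), a liver toxin that scars the organ when given repeatedly, for 0, 2 or 4 weeks, with 1 sample at each time. Mice labelled CluKO, for loss of the clusterin gene Clu, had received recombinant human clusterin together with CCl4, and how long this lasted is not in the labels. The labels list 6 such samples, the design text mentions 3 mice, and their cells lie in 1 matrix of 4694 cells and 28912707 UMIs whose barcodes name no sample. The wild-type matrices held 7739 to 20215 cells. Their rows could not be tied to gene names, so serpin levels in wild-type liver are not analysed here. Every level below is from the matrix labelled CluKO, treated as 1 pooled sample with no replicate, and no comparison with untreated or wild-type liver was made. Clu itself gave 13751 UMIs in that matrix (479 CPM, counts scaled to a total of 1000000 UMIs). The labels do not say which part of Clu was removed, so counts of transcript ends do not check the label.

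Of the 4616 cells kept, 4271 passed the marker gate of exactly 1 cell class, and no serpin was among the 178 marker genes. A class is named after the gate its cells passed. The gates gave 705 hepatocytes, the metabolic cells of the liver, and 504 mesothelial cells, which cover its surface. They gave 1913 macrophages, among them 639 Kupffer cells (resident liver macrophages) and 1020 macrophages rich in Gpnmb and Spp1, which are known from scarred liver. They also gave 340 monocytes, 342 cells of the neutrophil lineage with 118 granulocyte-monocyte progenitors among them, 182 plasma cells and 112 erythroid precursors. Basophils and mast cells (45 cells), T and NK cells (46), dendritic cells (38), endothelial cells (16), B cells (14) and plasmacytoid dendritic cells (14) numbered under 50 each and were given no comparison of their own. Median depth was 3343 UMIs per cell in hepatocytes, and over all classes it ran from 2676.5 in plasmacytoid dendritic cells to 11265 in progenitors. A level is the UMIs of a gene summed over a class, as CPM. Each interval is a 95% interval that covers counting error only and says nothing of the spread between mice. Where a share of cells with a UMI is given, a second value follows with every cell thinned to 2000 UMIs, since deeper cells show a gene more often.

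The Serpina1 genes carry most of the family's RNA in this liver, and their sequences show how alike the copies are. Serpina1a to Serpina1e encode alpha-1-antitrypsin, the plasma inhibitor of neutrophil elastase, and lie side by side on the minus strand of chromosome 12 (GRCm38; Serpina1a at 103853589 to 103863562, Serpina1b at 103728156 to 103830373, Serpina1c at 103894926 to 103904887, Serpina1d at 103763594 to 103773592, Serpina1e at 103946931 to 103958975). The annotated span of Serpina1b contains that of Serpina1d. A stretch of 76 bases that the 5 copies share near their starts is printed because it can be read against their levels, with the letters GTTAAT, the core of the site of the liver factor HNF1, in capitals (RefSeq, GRCm38.p6, 5′ to 3′ on the minus strand). It lies upstream of the RefSeq start of each copy, but the spans given above are from another annotation, GENCODE, and contain the stretches of Serpina1b and Serpina1e.
Serpina1a, chr12:103863625-103863700: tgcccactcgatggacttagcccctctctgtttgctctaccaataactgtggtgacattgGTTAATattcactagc
Serpina1b, chr12:103738200-103738275: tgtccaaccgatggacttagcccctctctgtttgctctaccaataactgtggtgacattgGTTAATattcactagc
Serpina1c, chr12:103904962-103905037: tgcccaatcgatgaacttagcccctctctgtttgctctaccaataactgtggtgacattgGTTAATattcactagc
Serpina1d, chr12:103773634-103773709: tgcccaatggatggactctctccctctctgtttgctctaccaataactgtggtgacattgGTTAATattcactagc
Serpina1e, chr12:103956960-103957035: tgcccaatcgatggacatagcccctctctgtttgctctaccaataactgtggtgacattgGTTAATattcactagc
The copies had the same base at 66 of the 76 positions, and positions 22 to 76 were identical in all 5. Counted from 1 at the 5′ end and against Serpina1e, Serpina1a differed by A7C and A17T, Serpina1b by C3T, T8C and A17T, and Serpina1c by G14A and A17T. Serpina1d differed at 6 positions (C9G, A17T, T18C, A19T, G20C and C21T). A17T is thus shared by the other 4 copies.

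Searched on both strands as GTTAAT or ATTAAC within 250 bases upstream of the RefSeq start, the motif stood before 2023 of 27025 genes (7.49%). It stood before 11 of the 53 serpins with a promoter in the table (20.8%). Among the 13 of these that were high in hepatocytes by the rule given below, 7 had it (53.8%): the 5 Serpina1 copies, which are near-identical and so do not count separately, Serpina7 and Serpinb8. Among the other 16 detected serpins with a promoter 0 had it, and among the 24 undetected ones 4 did (Serpina3c, Serpinb3b, Serpinb3d and Serpini2). Matches of 6 letters describe the sequence and not the binding of a factor.

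In all, 35 of the 67 members (52.2%) reached 10 UMIs in the kept cells, against 29.97% of all gene rows. They were 16 of clade a, 11 of clade b, both of clade f, 2 of clade e and 1 each of clades c, d, h and i. Another 10 members had 1 to 9 UMIs (Serpinb6c, Serpinb7, Serpinb11, Serpinb12, Serpine3, Serpina3c, Serpina3e-ps, Serpina3h, Serpina4-ps1 and Serpina9). The remaining 22 had 0 UMIs, which allows up to 0.105 CPM over the kept cells. They include Serpinb3a to Serpinb3d, Serpinb9c to Serpinb9g and Serpinb13 of the clade b clusters, and Serpina5, Serpina16, Serpina1f and Serpini2. By clade, 13 of the 22 belong to clade b and 8 to clade a.

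The clades divided by cell class. Hepatocytes gave 18016 serpin CPM (17869 to 18164), and clade a made up 95.7% of it. Mesothelial cells gave 3270 CPM, of which clade h made up 59.8% and clade b 28.0%. Macrophages gave 1043 CPM with 59.9% from clade b, and the neutrophil lineage gave 1052 CPM with 69.1% from clade b. In basophils and mast cells clade e made up 19.8% of 832 CPM, and in plasma cells clade i made up 4.46% of 252 CPM. Over all kept cells the 91885 serpin UMIs split into 71.0% clade a, 15.9% clade b, 9.48% clade h and under 2% for each other clade.

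**Figure D1:**
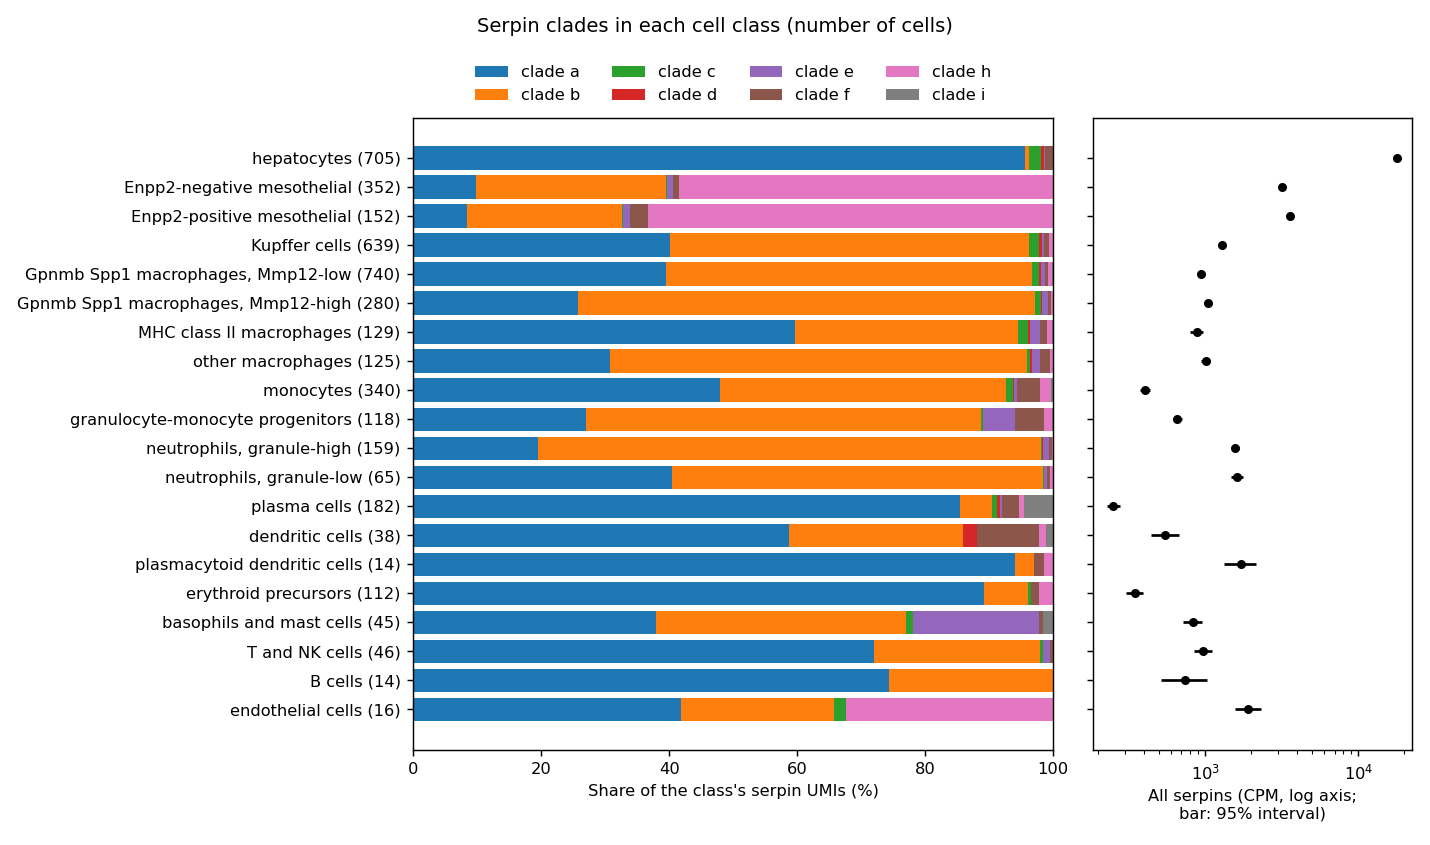
Share of serpin UMIs by clade in each cell class (left, %) and summed serpin level of the class (right, CPM on a log axis with 95% counting intervals), with the number of cells in brackets. Hepatocytes are almost all clade a (95.7%), mesothelial cells mostly clade h (59.8%) and the neutrophil lineage mostly clade b.

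**Figure D2:**
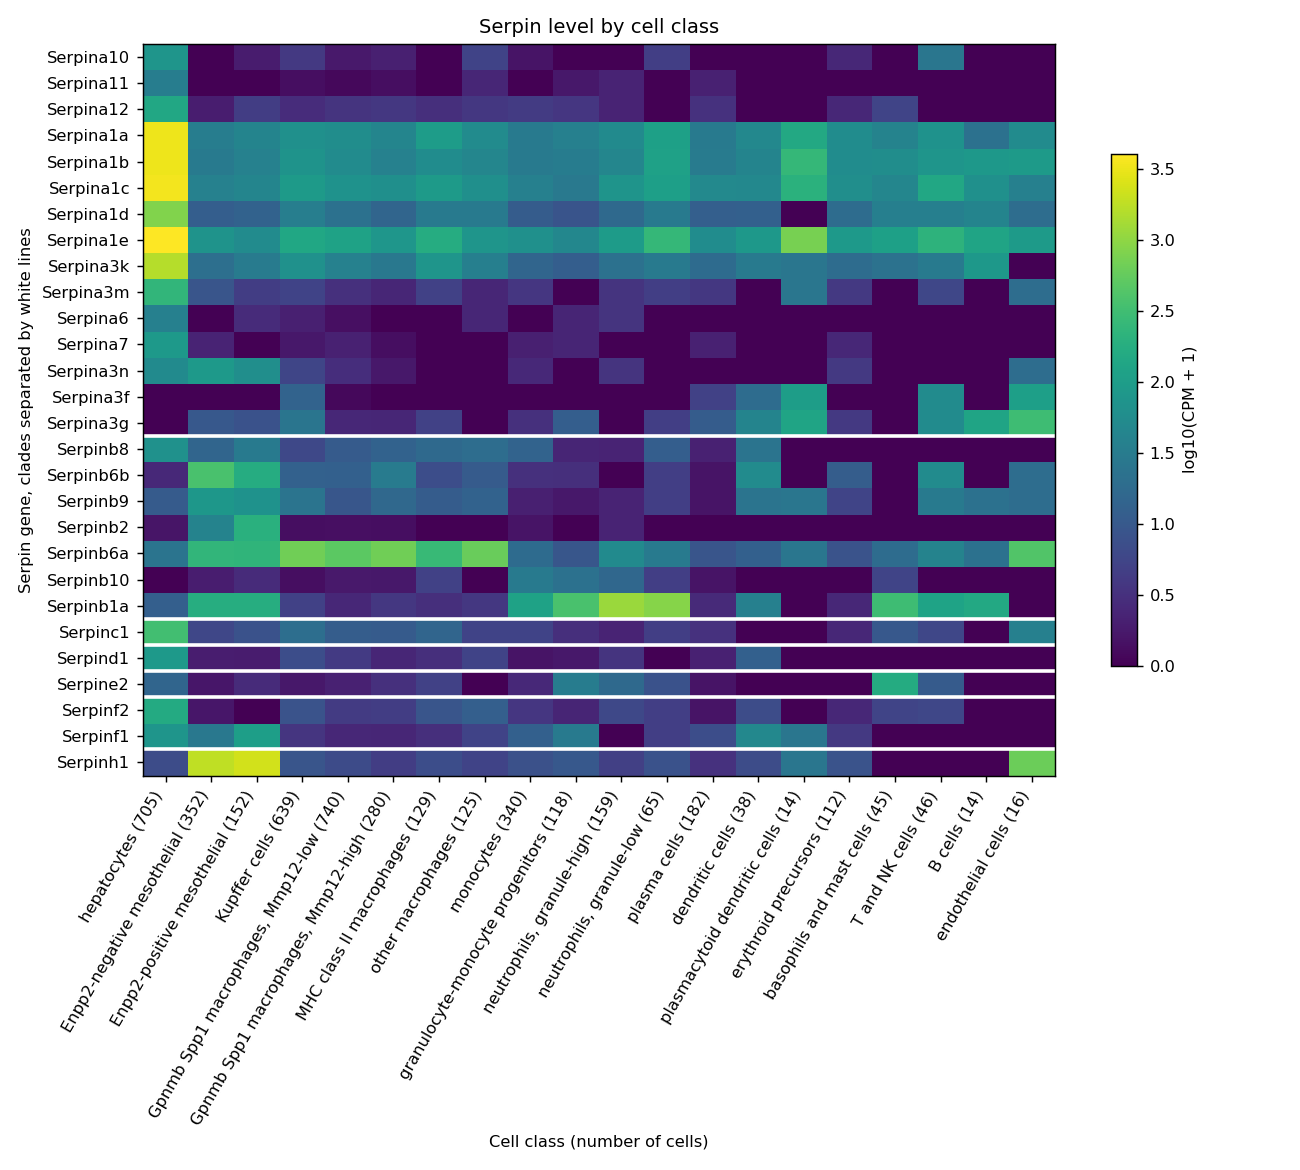
Level of the serpins described (rows, by clade) in each cell class (columns), as log10(CPM + 1). The rows of clades a, c, d and f are brightest in the hepatocyte column except Serpina3n, Serpina3f, Serpina3g and Serpinf1, Serpinh1 is brightest in the mesothelial columns, and the clade b rows are brightest in mesothelial, macrophage, monocyte, neutrophil or hepatocyte columns.

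Members were counted as high in a class when their summed count was at least 30 and their CPM at least 4 times that of all other gated cells. The count rule left 31 members, and the other 36 were too sparse. Hepatocytes were high in 17 of the 31, where 8.25% of all genes tested met the same rule. The members' median log2 ratio was 2.75 against -0.59 over all genes tested. Without the 5 Serpina1 copies 12 of 26 were high. The 17 comprise 12 of clade a, Serpinb8 of clade b, Serpinc1, Serpind1 and both clade f genes.

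The alpha-1-antitrypsin copies led. Serpina1e stood at 4036 CPM in hepatocytes and 94.3 CPM in other cells, 42.8-fold higher (40.9 to 44.8). Serpina1c stood at 3491, Serpina1b at 3305, Serpina1a at 3302 and Serpina1d at 825 CPM in hepatocytes. The 5 copies together gave 47750 of the 57507 serpin UMIs of hepatocytes (83.0%). A Serpina1e UMI was seen in 91.2% of hepatocytes (83.4% when thinned). In neutrophils and T cells, taken as cells that should lack the gene, the share was 21.5% (14.8% when thinned) at 146 CPM, and hepatocyte marker genes were counted outside hepatocytes as well, as given below.

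How well the copies can be told apart bears on these values. In the last 500 bases of the annotated transcripts, the part that tags sample, 33 of the 401 windows of 100 bases in Serpina1a were identical to another copy (8.23%), 39 in Serpina1c, 11 in Serpina1d, 5 in Serpina1b and 0 in Serpina1e. Serpina1e is thus the copy whose tags are least open to mixing by this measure, while the split of Serpina1a and Serpina1c is uncertain to that extent. How reads with several matches were counted is not stated in the labels. Of the 67 members, 58 shared no such window.

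The Serpina3 genes lie beside them on chromosome 12. Serpina3k, known as contrapsin, an inhibitor of trypsin-like proteases, stood at 1612 CPM in hepatocytes and 31.1 CPM elsewhere (51.8-fold). Serpina3m stood at 237 and 3.20 CPM (74.3-fold). The annotation gives Serpina3k and Serpina3m the same start, 104338486, so counts may be split between them. At the transcript ends, 0 of the 401 windows of either gene were shared with another member. Serpina3n, an acute-phase inhibitor of granzyme B and cathepsin G, was counted outside hepatocytes too, with 52.6 CPM in hepatocytes and 80.3 CPM in mesothelial cells. Serpina3f and Serpina3g had 0 UMIs in hepatocytes, which allows up to 0.940 CPM, and are described with the leukocytes.

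The hormone carriers of clade a, which no longer inhibit proteases, were hepatocyte genes as well. Serpina7, thyroxine-binding globulin (chromosome X, 139079257 to 139085236), stood at 85.8 CPM in hepatocytes and 0.84 CPM elsewhere, 102-fold higher (64.8 to 170). Serpina6, corticosteroid-binding globulin, stood at 36.3 and 0.50 CPM. Of the other secreted members, Serpina10, which with protein Z inhibits factor Xa, stood at 75.2 CPM, Serpina12 (vaspin) at 144 CPM and Serpina11 at 33.2 CPM. Each of these was 64.8-fold to 98.6-fold higher than outside hepatocytes.

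The plasma inhibitors of clotting and clot lysis followed the same pattern. Serpinc1, antithrombin, stood at 321 CPM in hepatocytes and 8.04 CPM elsewhere, 39.9-fold higher (34.2 to 46.8), with a UMI in 48.7% of hepatocytes and 1.11% of neutrophils and T cells (36.6% and 0.741% when thinned). Serpind1, heparin cofactor II, stood at 89.6 and 2.23 CPM (40.2-fold). Serpinf2, alpha-2-antiplasmin, stood at 159 and 3.28 CPM (48.3-fold). Some proteases of clotting and clot lysis were hepatocyte genes too: F2 (prothrombin) stood at 219 CPM, Plg (plasminogen) at 112 CPM and Proc (protein C) at 94.3 CPM. Others were not: the plasminogen activators Plat and Plau were at least 4-fold lower in hepatocytes, and F10 passed in neither direction. Of 56 genes tested on a list of 69 serpin targets, cofactors, receptors and clients, 11 were high in hepatocytes (8.25% of all genes): F2, F9, F11, F12, Klkb1, Plg, Proc, Hpn, Tmprss6, Vtn and Mug1. Another 36 were at least 4-fold lower there. The median log2 ratio of the list was -3.89 against -0.59 over all genes tested.

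Serpinf1, pigment epithelium-derived factor, and Serpinb8, an intracellular inhibitor of furin-like proteases, were the least exclusive of the 17. Serpinf1 stood at 75.5 CPM in hepatocytes and 13.003 CPM elsewhere (5.81-fold), and Serpinb8 at 66.7 and 9.89 CPM (6.75-fold). The other 15 reached at most 7.19% of their hepatocyte level in any of the 13 other classes of 50 or more cells, with a median of 1.39%. In Kupffer cells the median over the 17 was 3.39%. Hepatocyte marker genes were counted at low level in those classes as well, at 1800 CPM in Kupffer cells and 593 and 715 CPM in the mesothelial classes, against 57330 CPM in hepatocytes. Levels of these 15 members outside hepatocytes are therefore not read as expression, while Serpinf1 and Serpinb8 are described in other classes below.

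Liver lobules have a portal and a central end, and hepatocytes differ along the way between them. Hepatocytes were split by UMIs of 5 periportal and 5 pericentral marker genes into 256 periportal-marker cells and 217 pericentral-marker cells, and 232 had no call. A member was called here when its counts summed to 30 or more and the CPM differed by 2 times or more. On this rule 3 of 21 members tested were higher on the periportal side, where 4.16% of all genes were, and 5 were lower, where 6.3% were.

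Serpina1e, the most abundant copy, leaned to the portal side. It stood at 7244 CPM (7086 to 7406) in periportal-marker cells and 1497 CPM (1428 to 1569) in pericentral-marker cells, 4.84-fold higher. Serpina1c stood at 5165 and 2197 CPM (2.35-fold), while Serpina1b, at 3745 and 3342 CPM, and Serpina1a, at 4141 and 2907 CPM, stayed within the 2-fold bound. Of the UMIs of the 5 copies, Serpina1e held 33.7% (33.1 to 34.3) on the periportal side and 14.2% (13.6 to 14.8) on the pericentral side. Serpina1b went the other way, with 17.4% and 31.6%. Outside hepatocytes the Serpina1e share was 35.6%, and it was 36.0% in mesothelial cells and 34.4% in the neutrophil lineage, near the periportal value.

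The balance of copies also varied from cell to cell. Among the 583 hepatocytes with at least 20 Serpina1 UMIs, the Serpina1e share had a median of 26.2% and ran from 4.13% at the 10th to 44.8% at the 90th percentile. It was under 10% in 122 cells and over 40% in 114. The Serpina1a share was narrower, with a median of 20.7% and 12.8% to 35.4% between the same percentiles. Part of each spread is counting error at this depth.

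**Figure D3:**
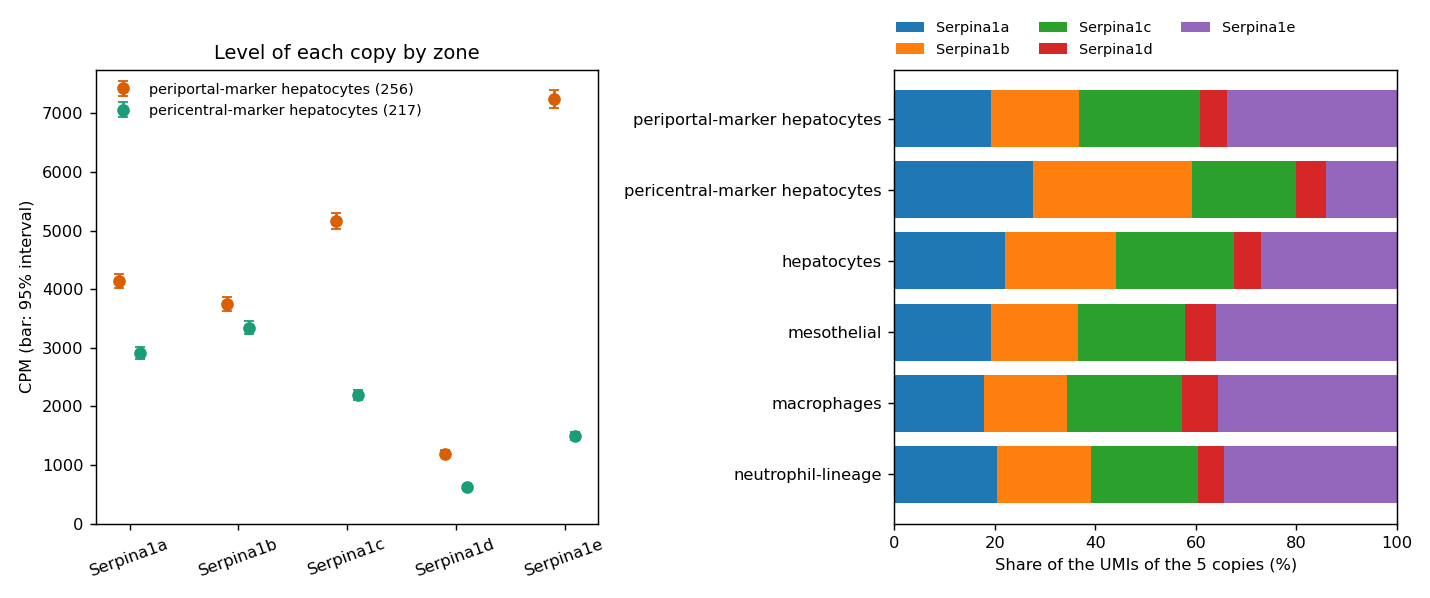
Level of the 5 Serpina1 copies in periportal-marker and pericentral-marker hepatocytes (left, CPM with 95% counting intervals) and the share of each copy among their summed UMIs in each group of cells (right, %). Serpina1e falls from 33.7% on the periportal to 14.2% on the pericentral side, and it is 34.4% to 36.0% in the bars of mesothelial cells, macrophages and the neutrophil lineage.

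The hormone carriers were pericentral. Serpina7 stood at 12.8 CPM (14 UMIs) in periportal-marker cells and 164 CPM (191 UMIs) in pericentral-marker cells, 12.8-fold lower on the periportal side (7.42 to 23.8). Serpina6 stood at 22.9 and 63.4 CPM, and Serpinf2 at 124 and 255 CPM. Serpinb6a and Serpine2, minor genes of hepatocytes, stood at 8.24 against 42.8 CPM and at 7.33 against 25.7 CPM. Serpina11 was the third periportal member, with 52.2 against 21.4 CPM. Serpinc1, at 388 and 323 CPM, and Serpina3k, at 2005 and 1500 CPM, did not pass 2-fold. With cells thinned to 2000 UMIs the calls of Serpina11, Serpinb6a, Serpine2 and Serpinf2 were lost. Saa1, a gene of the next split, stood at 2368 CPM in periportal-marker and 558 CPM in pericentral-marker cells. Its part in the zone calls was not tested.

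Several liver serpins are acute-phase proteins, so hepatocytes were also split at the median share of Saa1 and Saa2, serum amyloid genes that rise in the acute phase. Of 22 members tested, 7 were at least 2-fold higher in the 352 Saa-high cells, where 3.12% of all genes were, and 2 were lower, where 4.14% were. Serpina3k stood at 2404 and 942 CPM (2.55-fold, 2.41 to 2.71), Serpina1e at 6790 and 1709 CPM (3.97-fold) and Serpinc1 at 443 and 217 CPM (2.04-fold). Serpina1c, Serpina1d, Serpinb8 and Serpinf1 were higher by 2.13-fold to 2.42-fold. Serpina7, at 38.3 against 126 CPM, and Serpinb6a, at 8.21 against 35.8 CPM, were lower. Serpina3n, named above as an acute-phase inhibitor, did not pass 2-fold in this split.

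Zone moved with this split: the periportal markers summed to 2159 CPM in Saa-high and 727 CPM in Saa-low cells, and the pericentral markers to 725 and 1726 CPM. The ratios were therefore taken again within each zone. Serpina3k was 3.00-fold higher (2.59 to 3.49) with Saa among periportal-marker cells and 2.46-fold higher (2.22 to 2.71) among pericentral-marker cells. Serpinb8 kept 2.70-fold and 2.15-fold. Serpina1e was 1.81-fold higher (1.69 to 1.92) in the periportal and 3.84-fold higher (3.49 to 4.22) in the pericentral cells. Serpinc1 was 2.46-fold and 1.55-fold higher. Serpina3n was 1.70-fold higher (0.828 to 3.92) in periportal cells, an interval that includes no difference, and 2.25-fold higher (1.29 to 3.80) in pericentral cells. Serpina7 was 0.864 times as high (0.572 to 1.27) in Saa-high pericentral cells, an interval that includes no difference. Serpinf2 was 3.75-fold higher with Saa in periportal cells and 0.647 times as high in pericentral cells. The zone calls in turn did not hold Saa fixed. Among Saa-high cells Serpina1e stood at 8075 CPM in periportal-marker and 3741 CPM in pericentral-marker cells, and Serpina1c at 5646 and 3727 CPM. Among Saa-low cells they stood at 4473 and 974 CPM and at 3559 and 1841 CPM. Serpina1c was thus under 2-fold in both. Serpinf2 stood at 149 and 177 CPM in Saa-high cells and at 39.7 and 273 CPM in Saa-low cells.

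A small set of 96 hepatocytes carried at least 20 Clu UMIs per 10000, 9218 CPM of Clu against 471 CPM in the other 609. Of 22 members, 8 were at least 2-fold higher in the Clu-high cells, where 10.4% of all genes were, and 1 was lower, where 10.4% were. Serpind1 stood at 272 against 52.4 CPM (5.20-fold, 4.10 to 6.60) and Serpinf2 at 469 against 95.4 CPM (4.92-fold, 4.11 to 5.88). Over all hepatocytes 1 cell held 12.9% of the Serpind1 UMIs and 1 cell 10.1% of the Serpinf2 UMIs, a spread between cells that the intervals leave out. Serpine2, protease nexin-1, a thrombin and urokinase inhibitor, stood at 50.05 against 6.41 CPM. Serpinc1, Serpinf1, Serpina10 and Serpina6 were higher by 2.04-fold to 2.58-fold, and Serpinb6a by 4.92-fold. Serpinb9 had 1 UMI against 30. The calls of Serpine2 and Serpinb9 were lost when the gate asked for 2 times the marker share. They were also lost with cells thinned to 2000 UMIs, as was Serpinb6a, and without cells of over 2 times the median depth. Within periportal-marker cells Serpine2, Serpinb9, Serpinb6a, Serpina10 and Serpina6 did not pass, and within pericentral-marker cells Serpinb9, Serpinf1 and Serpina6 did not. Among pericentral-marker cells Serpina6 did not differ in the same direction, at a log2 ratio of -0.015, and with Clu-high set at 50 UMIs per 10000 its log2 ratio was -1.34. At that bound Serpinc1 and Serpinf1 no longer passed, and Serpina1e, Serpina3m, Serpinb1a and Serpinb8 did, counted in either direction. Also in either direction, calls were gained for Serpina1d and Serpina3k within periportal-marker cells and for Serpina1e within pericentral-marker cells. Thinning added Serpina11, Serpina3n and Serpina7, and leaving out the deepest cells added Serpina3n and Serpina7. In the main split Serpina1e was lower in Clu-high cells, at 3031 against 4240 CPM. Many other liver genes moved with Clu: Alb, albumin, stood at 15835 against 4651 CPM, the pericentral markers summed to 2198 against 1078 CPM, and Ly6d stood at 3805 against 171 CPM. Of 26 list partners tested 17 were higher and 2 lower. Their part in the result was not tested.

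Mesothelial cells were high in 6 of the 31 members (12.6% of all genes), and 5 are described here: Serpinh1, Serpinb2, Serpinb6b, Serpinb9 and Serpina3n. Serpinh1, also called HSP47 (chromosome 7, 99345376 to 99353239), helps the procollagen triple helix to fold. It stood at 1957 CPM in mesothelial and 7.17 CPM in other gated cells, 273-fold higher (234 to 321). A UMI was seen in 500 of 504 mesothelial cells (93.7% of them when thinned), against 2.55% of hepatocytes (1.56%) and 1.85% of neutrophils and T cells (0.0%). Its clients moved the same way, with Col1a1 at 1375 against 6.64 CPM and Col3a1 at 2349 against 10.1 CPM. Of the 56 list partners tested 16 were high in mesothelial cells, among them 6 collagen chains and Fkbp10, P3h1 and Plod2, which act on procollagen. Another 27 were at least 4-fold lower.

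Among the small classes, endothelial cells had 617 CPM of Serpinh1 (427 to 862), from 34 UMIs in 10 of 16 cells (56.25% of the 16 when thinned). Markers of stellate cells, the liver's collagen-making pericytes, summed to 2341 CPM in those 16 cells with 2 of 9 at 0, and Col1a1 stood at 817 CPM there. The same markers summed to 5897 CPM in mesothelial cells without Enpp2 (1 of 9 at 0) and 8729 CPM in those with it (4 of 9 at 0). Dcn, which fibroblasts share, made up most of this at 5366 and 8201 CPM, Ecm1 stood at 497 and 452 CPM and Des at 15.6 and 63.9 CPM. Lrat, a defining stellate marker, had 2 and 0 UMIs, and Reln 0 in both. Their part in the mesothelial levels was not tested.

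The intracellular clade b gave the next mesothelial genes. Serpinb6b stood at 321 CPM in mesothelial cells and 10.2 CPM elsewhere (31.3-fold), and Serpinb9, an inhibitor of granzyme B, at 76.8 and 9.495 CPM (8.08-fold). Serpinb6a, which inhibits cathepsin G, was present as well at 238 and 230 CPM in the cells without and with Enpp2, under its macrophage level. Serpina3n stood at 80.3 and 8.84 CPM (9.09-fold).

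Serpinb2, an inhibitor of urokinase (chromosome 1, 107511423 to 107535478), was high in few cells. It stood at 80.3 CPM in mesothelial and 0.35 CPM in other cells (228-fold), but 27 of 504 cells held all of its 338 mesothelial UMIs. The gene overlaps Serpinb10 (107529003 to 107549271), whose counts lay in other cell classes. The cell with the most Serpinb2 held 107 UMIs, or 7880 CPM within that cell. It had 1 Enpp2 UMI and, of the mesothelial markers, 2 Msln and 6 Upk3b UMIs, beside 63 of Col1a1. The second cell had 1 Msln, 0 Upk3b and 35 Col1a1 UMIs, and the third 0, 0 and 79. The fourth had 22, 9 and 16. Whether the richest cells are mesothelial cells proper was not tested. Plat, the tissue plasminogen activator, stood at 123 CPM in mesothelial and 0.97 CPM in other cells. Plaur, the urokinase receptor, stood at 90.5 and 72.8 CPM in the cells without and with Enpp2.

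Mesothelial cells were also split into those with at least 1 UMI of Enpp2, the gene of autotaxin, and those without. The 152 Enpp2-positive cells were also the richer in collagen, with Col1a1 at 2717 against 885 CPM, and the poorer in Slpi, a small elastase inhibitor, at 5343 against 21548 CPM. Of 17 members tested, 3 were at least 2-fold higher in Enpp2-positive cells (4.7% of all genes) and 1 was lower (5.67%). Serpinf1, a secreted collagen-binding serpin without inhibitory action, stood at 103 against 26.9 CPM (3.82-fold, 2.86 to 5.13), beside 75.5 CPM in hepatocytes. Serpinb8 stood at 29.3 against 14.0 CPM (2.10-fold, 1.29 to 3.38). Serpinb6b went the other way, with 168 against 377 CPM, 2.25-fold lower (1.93 to 2.63). Serpinh1 stayed within 2-fold, with 2266 against 1844 CPM. Neither Serpinb6b nor Serpinb8 passed when the gate asked for 2 times the marker share. Serpinb6b was also lost without cells of over 2 times the median depth, and Serpinb8 with cells thinned to 2000 UMIs and with an offset of 5 CPM.

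Serpinb2 stood at 191 against 39.9 CPM in these classes (4.78-fold, 3.81 to 6.02). The UMIs came from 12 of 152 and 15 of 352 cells, and 1 Enpp2-positive cell held 49.8% of that class's UMIs. Without that cell the level was 97.0 CPM and the ratio 2.43 (1.86 to 3.17). The 5 richest cells held 93.5% of the UMIs of the Enpp2-positive class, so the ratio rests on them. In the 111 mesothelial cells with cell-cycle transcripts, 1 of 17 members was higher (7.02% of all genes) and 1 lower (5.06%). Serpinb8 stood at 35.7 against 9.78 CPM and Serpina3g at 2.97 against 10.8 CPM.

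**Figure D4:**
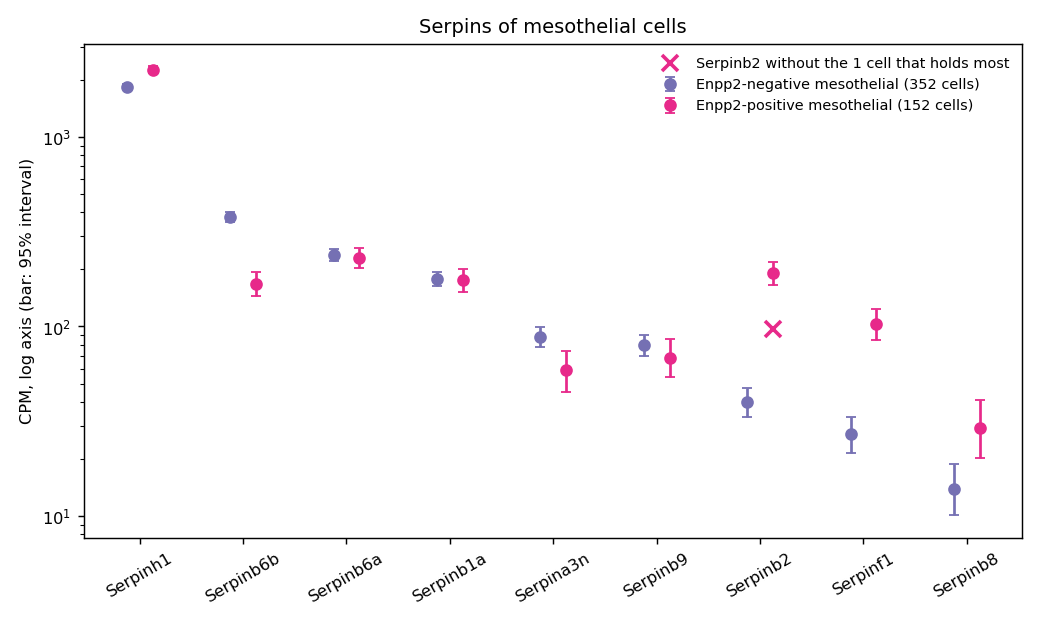
Level of the serpins described in mesothelial cells (CPM, log axis, 95% counting intervals), in 352 Enpp2-negative and 152 Enpp2-positive mesothelial cells, with a cross for Serpinb2 without the cell that holds most of it. Serpinh1 stands at 1844 and 2266 CPM, Serpinb2 and Serpinf1 are higher with Enpp2 and Serpinb6b is lower.

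Macrophages were high in 2 of 31 members (5.25% of all genes). Serpinb6a (chromosome 13, 33917918 to 34002794), the cytosolic inhibitor of cathepsin G and related proteases, stood at 576 CPM in macrophages and 81.3 CPM elsewhere, 7.09-fold higher (6.67 to 7.54). It stood at 669 CPM in Kupffer cells, 501 and 671 CPM in Gpnmb Spp1 macrophages low and high in Mmp12, and 268 CPM in macrophages rich in MHC class II. A UMI was seen in 83.5% of macrophages and 18.1% of neutrophils and T cells, or 60.9% and 8.15% when thinned. Monocytes stood at 17.1 CPM and progenitors at 8.20 CPM, far under the macrophage classes. Serpinb1c gave 34 UMIs in macrophages and 0 in other gated cells, at least 14.2-fold higher with 3 counts over the other cells as the floor. The member did not pass with cells thinned or an offset of 5 CPM.

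The lysosomal proteases were richest in the same cells. Ctsb, cathepsin B, stood at 13543 CPM in macrophages and 585 CPM elsewhere, Ctss at 7028 and 285 CPM, and Ctsl at 1324 and 200 CPM. Of the list partners 9 of 56 were high (5.25% of all genes): Ctsb, Ctsk, Ctsl, Ctss, Cstb, Lrp1, Mmp12, Plau and Plod1. Another 32 were at least 4-fold lower. Lrp1, the receptor that clears complexes of protease and serpin, stood at 2332 CPM in macrophages against 251 CPM elsewhere.

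Within the lineage, 2 of 18 members tested were higher in Gpnmb Spp1 macrophages than in Kupffer cells (7.69% of all genes) and 5 were lower (15.6%). Serpina3g, known as Spi2A, which protects leukocytes from their own lysosomal cathepsins, stood at 1.49 CPM against 24.2 CPM in Kupffer cells, 16.2-fold lower (8.67 to 32.9). Serpina3f, its neighbour, had 1 UMI against 36, 106-fold lower with a counting interval of 17.8 to 4296. Both genes were highest in the few endothelial cells, Serpina3g at 309 CPM and Serpina3f at 109 CPM from 6 UMIs. Endothelial markers summed to 14792 CPM there and 881 CPM in Kupffer cells. They summed to 27.9 and 45.1 CPM in Gpnmb Spp1 macrophages low and high in Mmp12. Their part in the levels of Serpina3f and Serpina3g was not tested. Serpinb9 stood at 10.7 against 23.1 CPM. Serpinb1c had 32 UMIs against 1, and Serpinb8 stood at 10.96 against 5.13 CPM. Serpinf2 and Serpind1, the remaining 2 lower members, are hepatocyte genes, and hepatocyte markers were also counted in Kupffer cells at 1800 CPM. Serpinb6a differed by under 2-fold, at 561 against 669 CPM. With an offset of 5 CPM, 2 of the 7 calls were left, Serpina3f and Serpina3g.

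The Mmp12-high macrophages, named for the macrophage elastase, differed from the Mmp12-low ones in 2 of 14 members, both higher (1.91% of all genes), and in 0 lower (2.66%). Serpinb1c stood at 7.05 against 2.31 CPM (3.05-fold, 1.42 to 6.85) and Serpinb6b at 30.3 against 11.9 CPM (2.54-fold, 1.81 to 3.58). Ctsl stood at 2933 against 1103 CPM in the same cells and Plau, urokinase, at 56.0 against 17.3 CPM.

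The neutrophil lineage was high in 3 of 31 members (2.36% of all genes). Serpinb1a (chromosome 13, 32842092 to 32851185), the cytosolic inhibitor of neutrophil elastase, proteinase 3 and cathepsin G, stood at 679 CPM and 46.7 CPM elsewhere, 14.6-fold higher (13.5 to 15.7). It stood at 373 CPM in progenitors, 1169 CPM in neutrophils rich in secondary-granule transcripts and 885 CPM in the other neutrophils. A UMI was seen in 101 of 118, 143 of 159 and 38 of 65 cells of these classes, or in 39.0%, 83.0% and 53.8% of cells when thinned. Basophils and mast cells had 302 CPM (235 to 383), mesothelial cells 177 and 176 CPM, monocytes 117 CPM and Gpnmb Spp1 macrophages low in Mmp12 1.54 CPM.

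The proteases that Serpinb1a blocks include Elane, Prtn3 and Ctsg, which are marker genes of the progenitor gate. Elane, neutrophil elastase, stood at 8936 CPM in progenitors and 765 CPM in granule-rich neutrophils. Prtn3 stood at 5926 and 274 CPM, and Ctsg at 2084 and 41.4 CPM. Serpinb1a was 2.94-fold lower (2.65 to 3.26) in progenitors than in all neutrophils. That these 3 proteases were higher in progenitors follows from the gate and is not a result. The granule-poor neutrophils had 8599 CPM of Elane, and 6 of the 65 cells held it. Against neutrophils, progenitors had 2 of 11 members higher, Serpine2 and Serpinf1 (52.1% of all genes), and 6 lower (9.77%), of which 4 were hepatocyte genes. Serpinf1 had 42 UMIs in progenitors against 1 in neutrophils. Between the neutrophil classes 0 of 6 members were higher in granule-rich cells (4.22%) and 3 were lower (14.2%), all Serpina1 copies at background level.

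Serpinb10, bomapin, is known as a nuclear serpin of blood-forming cells. GENCODE classes the gene as a polymorphic pseudogene, and whether its RNA gives a working protein was not tested. Serpinb10 was counted in monocytes and the neutrophil lineage. It stood at 28.9 CPM in monocytes, 21.2 CPM in progenitors and 15.1 CPM in granule-rich neutrophils. Monocytes, at 12.1-fold over the other cells, were high in this member only, 1 of 31 (1.5% of all genes). The neutrophil lineage was 6.05-fold higher than the rest. In hepatocytes its count was 0.

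Serpine2 was the third member high in the neutrophil lineage. The neutrophil lineage stood at 24.4 CPM and the other cells at 4.38 CPM (5.58-fold), with 32.1 CPM in progenitors. With an offset of 5 CPM neither Serpine2 nor Serpinb10 passed in the neutrophil lineage. The highest level was in basophils and mast cells, at 165 CPM (116 to 227) from 37 UMIs in 25 of 45 cells (31.1% of the 45 when thinned). These cells also held Mcpt8, a granule protease of basophils, at 27318 CPM and Cpa3 at 7340 CPM, both marker genes of their gate. Thrombin, a target of Serpine2, was counted in hepatocytes as F2.

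Plasma cells were high in 1 of 31 members (1.66% of all genes), Serpini1. Neuroserpin, as it is called, inhibits tissue plasminogen activator and is known from neurons. It stood at 11.2 CPM in plasma cells and 0.68 CPM elsewhere (16.6-fold, 8.28 to 33.8), from 20 UMIs in 16 cells. These were 8.79% of plasma cells, or 1.10% when thinned, and median depth in this class was 8901 UMIs. Basophils and mast cells stood at 13.3 CPM from 3 UMIs. Erythroid precursors were high in 0 of 31 (3.64% of all genes). In the 16 endothelial cells Serpina3g stood at 309 CPM (179.7 to 494) from 17 UMIs in 8 cells.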

How the data were processed

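The authors deposited raw UMI counts per gene and cell as sparse matrices. GRCm38 is the build in the submitters' processing notes. Neither the aligner nor the rule that called cells is stated there. Kept cells (4616 of 4694) had 200 or more genes and no more than 20% of mitochondrial UMIs. Classes were gated on marker UMIs, and 101 cells that passed more than 1 gate were left out as possible doublets. No doublet caller was run. 244 cells passed none. Counts were summed per class and given as CPM, with exact Poisson intervals for levels, conditional binomial intervals for ratios and exact Clopper-Pearson intervals for shares, all at 95% (Python 3.11.15, numpy 2.4.6, scipy 1.17.1, pandas 2.3.3, matplotlib 3.10.9). A single pooled matrix allows no test between samples, so there are no p-values. A transcript-end tag is not divided by gene length. Zone needed at least 3 marker UMIs with 67% of them from 1 side.

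Members with at least 100 UMIs, or with 20 CPM and 10 UMIs in a class, qualified for description with values (29 of 67), and 1 of these is not reported here. Others were named after their values were seen. List genes are named beside the serpin they pair with. The members and lists were chosen with earlier results of these data known. The zone, Clu, cycling, Mmp12 and neutrophil-stage comparisons were added after the data were seen. Positions are from GENCODE for GRCm38. On simulated counts all 200 genes changed 8-fold were called in hepatocytes (13646 genes) and in mesothelial cells (13592 genes). All 200 changed 4-fold between mesothelial classes (9794 genes) were called too, as were 35 unchanged genes (0.365%) there. The simulated counts held counting error only, and each simulated fold was above the fold of its rule. Spread between cells and transcripts from other classes were not simulated, so the calls were not checked against these.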

Additional observations from a re-analysis of the deposited data

How the results depend on the processing

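No paired analysis was possible because the samples labelled CluKO lie in 1 matrix whose barcodes name no sample. For the same reason no replicate could be left out. Of 74 recomputed counts of members, 63 stayed within 1.5 times of the reported value and 11 moved. The 17 members high in hepatocytes were 17 to 18 and the 6 high in mesothelial cells 6 to 8. Macrophages fell from 2 to 1, losing Serpinb1c, when the gate asked for 2 times the marker share, with cells thinned to 2000 UMIs, with an offset of 5 CPM and without cells of over 2 times the median depth. The neutrophil lineage fell from 3 to 1 with the offset, which left Serpinb1a. The Enpp2 comparison fell from 4 to 2 with the stricter gate, losing Serpinb6b and Serpinb8, and to 3 when thinned or with the offset (without Serpinb8) and without the deepest cells (without Serpinb6b). Gpnmb Spp1 macrophages against Kupffer cells had 7 members, 13 with a summed count of at least 10, 3 when thinned and 2 with the offset. The zone comparison fell from 8 to 4 when thinned, keeping Serpina1c, Serpina1e, Serpina6 and Serpina7. The Saa comparison fell from 9 to 5 within periportal cells. Of 513 member ratios 470 stayed past the fold, 40 kept their direction under it and 3 reversed. Serpinb6a had a log2 ratio of 0.069 with Saa in periportal cells. Serpina6 had -0.015 with Clu in pericentral cells and -1.34 when Clu-high meant 50 UMIs per 10000. The causes were not tested. The within-zone settings, the other Clu and zone bounds and leaving out the richest Serpinb2 cell were chosen after seeing the data.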
